A study of Mus musculus with 6 samples.

Results

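The genes described here are those of fibroblast growth factor (FGF) signalling and of the feedback inhibitors and phosphatases that restrain it. They were taken by symbol from the deposited count table: the Fgf ligands, symbols beginning with Fgfr, Spry1 to Spry4, Spred1 to Spred3 and the Dusp genes. The table held 59 such symbols among 22272, and 38 of them had enough counts to be tested. C2C12 is a mouse myoblast line, a culture model of dividing muscle precursors. RNA was sequenced from 3 libraries of C2C12 cells that overexpressed ChREBP-beta, the short and highly active form of the product of Mlxipl, a factor that activates genes of sugar and fat metabolism when glucose is high, and from 3 libraries of C2C12 cells with green fluorescent protein (GFP), labelled wild type. Both groups were undifferentiated and were taken at day 0. The sources used here do not state how the factor was introduced, nor whether the cells were pools or clones.

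FGF ligands bind receptor tyrosine kinases at the cell surface together with heparan sulphate, or with a klotho protein in the case of the endocrine ligands. The activated receptor signals through the adaptor Frs2 to Ras, Raf, Mek and the kinase Erk. Erk in turn induces genes that damp the pathway, among them Sprouty and Spred proteins and dual-specificity phosphatases (Dusp, of which the MAP kinase phosphatases dephosphorylate Erk, Jnk or p38). In myoblasts FGF signalling is known for promoting division and holding back differentiation.

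The libraries held between 17600238 and 19163834 counts, with both groups across that range. Mlxipl was read at 222, 215 and 220 CPM (counts scaled to a common library size with TMM factors) in the ChREBP-beta libraries and at 0.576, 0.719 and 0.501 CPM in the GFP libraries, as the labels would have it. Of 6 myoblast markers, 6 were called lower with ChREBP-beta. Over all genes tested, 29.3% were called lower and 29.5% higher. The summed level of the 6 was 119 to 126 CPM in ChREBP-beta libraries against 342 to 374 CPM in GFP libraries, and Pax7 was at 0 in 2 ChREBP-beta libraries. Of 6 fibroblast and fibro-adipogenic markers, 4 were called higher (Pdgfra, Ly6a, Dpt and Pi16) and 2 lower (Cd34 and Dcn), and their summed level was 875 to 900 CPM in ChREBP-beta libraries against 827 to 861 CPM in GFP libraries. Summed lung epithelial markers were 70.5 to 92.2 CPM in ChREBP-beta libraries and 0.837 to 135 CPM in GFP libraries. Summed hepatocyte markers were 14.8 to 20.1 CPM in ChREBP-beta libraries and 0.0553 to 23.7 CPM in GFP libraries. Scgb1a1, the highest lung marker, was at 0.157, 95.9 and 57.5 CPM in GFP replicates 1, 2 and 3. Alb, the highest hepatocyte marker, was at 0.105, 0 and 16.3 CPM in the same libraries. Macrophage markers summed to 15.4 to 17.6 CPM with ChREBP-beta and 5.34 to 17.4 CPM with GFP. Red blood cell markers summed to 5.49 to 9.80 CPM with ChREBP-beta and 3.35 to 11.0 CPM with GFP. The part of these markers in the results that follow was not tested. Nothing in the labels tells separate cultures from repeats of 1 culture, and every p-value here rests on a spread between libraries that may be technical. In bulk RNA, fewer cells of a type and less RNA per cell cannot be told apart.

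Among the 38 tested genes, 8 were called higher and 14 lower with ChREBP-beta, and 16 were not called (edgeR's quasi-likelihood test, adjusted over all genes by Benjamini-Hochberg, with a threshold of 0.05). The 22 called genes were 57.9% of the 38, against 58.7% of the 12166 genes tested in the whole table. The share called was thus near the background. By direction, the background was 29.5% called higher and 29.3% called lower. Changes of at least 2-fold were called for 8 of the 38, 2 higher (Fgf15 and Dusp9) and 6 lower (Fgfr2, Fgfr3, Fgfr4, Fgf10, Dusp22 and Dusp27), where the background for such calls was 11.5%. Of these, Fgf15, Fgfr4 and Dusp22 had enough counts to be tested only in the group where they were higher. A large difference was thus partly set by the filter on low counts, which was the same for all genes. The median log2 fold change of the 38 was -0.11, beside -0.00 over all genes tested. It was the same with Fgfr4, which had no count with ChREBP-beta, at its bound. The libraries of one group did not overlap those of the other for 23 of the 38 genes, where the background was 63.2%.

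**Figure D1:**
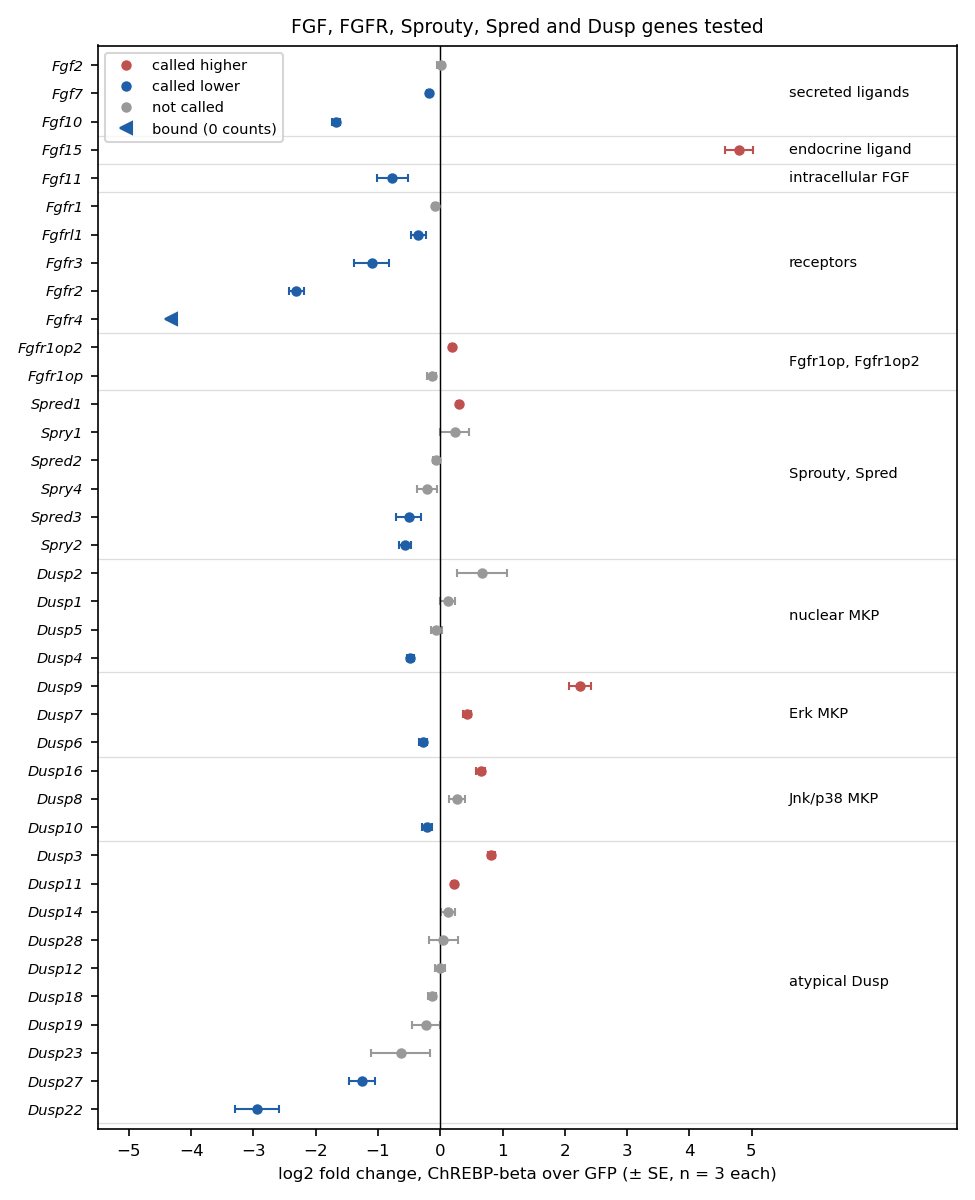
Log2 fold change (ChREBP-beta over GFP, x axis, ± SE, 3 libraries each) of the 38 tested genes, grouped by role (MKP: MAP kinase phosphatase). Red points were called higher, blue points lower and grey points not called, and the arrowhead for Fgfr4 is a bound from 0 counts. Fgf15 at 4.80 and Dusp9 at 2.24 lie farthest right, and Fgfr4, Dusp22 and Fgfr2 farthest left.

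Promoter windows from RefSeq (GRCm38.p6, 250 bases before to 50 after the annotated start) are shown for 5 genes that bear on the E-box CACGTG, the core that ChREBP binds as a pair with its partner Mlx. Fgf21 is a known ChREBP target in liver, Fgfr2 and Fgfrl1 are receptor genes that fell and have a match, Fgfr4 is the receptor gene with the largest fall and has none, and Dusp1 has a match and was not called. Capitals mark the E-box, read on both strands.
Fgf21, chr7:45615441-45615740, minus strand: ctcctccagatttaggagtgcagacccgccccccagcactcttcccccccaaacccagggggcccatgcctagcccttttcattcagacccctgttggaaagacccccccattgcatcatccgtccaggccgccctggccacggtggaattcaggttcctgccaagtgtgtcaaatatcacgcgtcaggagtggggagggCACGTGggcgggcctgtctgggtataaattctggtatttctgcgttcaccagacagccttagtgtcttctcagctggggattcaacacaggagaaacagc
Fgfr2, chr7:130266759-130267058, minus strand: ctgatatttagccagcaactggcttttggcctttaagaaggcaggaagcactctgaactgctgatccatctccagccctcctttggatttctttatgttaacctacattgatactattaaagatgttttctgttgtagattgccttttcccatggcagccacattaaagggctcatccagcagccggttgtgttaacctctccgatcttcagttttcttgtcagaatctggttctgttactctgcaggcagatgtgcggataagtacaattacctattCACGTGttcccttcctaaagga
Fgfrl1, chr5:108693979-108694278, plus strand: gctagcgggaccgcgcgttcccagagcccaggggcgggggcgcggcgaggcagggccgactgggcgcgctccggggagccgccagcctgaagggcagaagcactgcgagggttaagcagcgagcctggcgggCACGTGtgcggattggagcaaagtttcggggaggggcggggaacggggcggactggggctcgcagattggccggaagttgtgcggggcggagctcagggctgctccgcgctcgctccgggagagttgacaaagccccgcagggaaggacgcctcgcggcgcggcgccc
Fgfr4, chr13:55152568-55152867, plus strand: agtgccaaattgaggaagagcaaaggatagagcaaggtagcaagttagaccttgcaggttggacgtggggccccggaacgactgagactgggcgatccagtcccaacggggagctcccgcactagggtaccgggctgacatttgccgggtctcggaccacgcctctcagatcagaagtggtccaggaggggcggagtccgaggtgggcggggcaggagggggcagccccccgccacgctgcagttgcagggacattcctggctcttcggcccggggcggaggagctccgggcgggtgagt
Dusp1, chr17:26508423-26508722, minus strand: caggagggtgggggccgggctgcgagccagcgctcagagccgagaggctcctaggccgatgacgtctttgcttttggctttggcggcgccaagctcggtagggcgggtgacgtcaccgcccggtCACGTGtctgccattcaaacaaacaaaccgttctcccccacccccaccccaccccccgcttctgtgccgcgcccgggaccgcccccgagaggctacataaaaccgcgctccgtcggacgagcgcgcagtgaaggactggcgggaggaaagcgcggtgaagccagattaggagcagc
The E-box began 50 bases before the start in Fgf21, 118 before it in Fgfrl1 and 126 before it in Dusp1, and at base 29 of the transcript in Fgfr2. Of the 59 genes, 44 were in the promoter table with 55 windows. An E-box was in 6 of the 55 windows (Dusp1, Dusp2, Fgf6, Fgf21, Fgfr2 and Fgfrl1), and in 7.15% of all 32851 windows. Of the 6 genes, 4 were tested, of which Fgfr2 and Fgfrl1 were called lower and Dusp1 and Dusp2 were not called. Fgf6 and Fgf21 were too low to test. The paired ChREBP element was searched as an E-box, 5 bases of any kind and another E-box. That exact pair was in 0 of the 55 and in 0 of all windows. A looser pair would be missed, and with 0 in all windows the search cannot set these genes apart from others. The cAMP response element TGACGTCA was in 2 of the 55 windows (Dusp1 and Dusp8) and in 1.79% of all. The AP-1 motif TGACTCA was in 2 (Dusp13 and Fgf12) and in 5.2% of all, and the Ets motif CCGGAAGT in 1 (Fgfrl1) and in 3.89% of all. Each was read on both strands, and these matches describe letters, not binding.

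Of the 18 secreted ligand genes, 4 were expressed enough to be tested: Fgf7, Fgf10, Fgf2 and Fgf15. Fgf7, keratinocyte growth factor, which mesenchymal cells secrete to epithelia, was the most abundant of them. It was read at 255, 271 and 262 CPM in ChREBP-beta libraries and at 301, 289 and 299 CPM in GFP libraries. All ChREBP-beta libraries lay below all GFP libraries, by a small step of -0.17 in log2 fold change (SE 0.0307, edgeR adjusted p = 3.02e-05). Fgf2, basic FGF, a mitogen of myoblasts, averaged 63.0 ± 3.08 CPM with ChREBP-beta and 62.7 ± 3.86 CPM with GFP (SD, n = 3 each), and the groups overlapped (edgeR adjusted p = 0.908). Exons of Fgf2 overlap those of Nudt6 on the opposite strand, and in all 6 libraries the counts of Fgf2 are not whole numbers. The reads of the pair may thus not be fully separated, which was not tested. Nudt6 was not called either, at 5.23 CPM with ChREBP-beta and 5.28 CPM with GFP.

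Fgf10, a mesenchymal ligand of lung, limb and fat development, fell 3.19-fold. Its level was 25.7, 23.2 and 22.9 CPM in ChREBP-beta libraries, against 73.5, 77.1 and 78.8 CPM in GFP libraries. The groups stood far apart with little spread within either, and the log2 fold change was -1.67 (SE 0.0582, edgeR adjusted p = 7.15e-18). Fgf10 (ENSMUSG00000021732.14) lies on chromosome 13. Exons of Fgf10 overlap those of the annotated antisense gene Gm16263, and the strand setting of the counts is not known.

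Fgf15 rose 27.8-fold, the largest rise among the 38 tested genes. Fgf15 (ENSMUSG00000031073.6; chromosome 7, 144896532 to 144900953, plus strand, GRCm38) encodes an endocrine FGF made by the ileum in response to bile acids, which represses bile acid synthesis in liver, and is also expressed in embryonic tissues. It was read at 10.5, 11.9 and 11.4 CPM in ChREBP-beta libraries, with 193, 223 and 198 counts. The GFP libraries had 0.523, 0.277 and 0.390 CPM, with 10, 5 and 7 counts. The groups stood far apart (log2 fold change 4.80, SE 0.225, edgeR adjusted p = 3.20e-15). Its exons overlap the annotated antisense genes Gm26793 and Gm39119, and the strand setting of the counts is not known. The promoter of Fgf15 is not shown.

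The genes on either side of Fgf15 were looked at after its rise was seen, as were those around the other genes called at 2-fold. Within 250 kb of Fgf15, 3 genes were tested and 3 were called higher with ChREBP-beta. Over all genes tested, 29.5% were called higher and 29.3% lower. The annotated spans of LTO1 and Ccnd1 overlap, and in all 6 libraries the counts of both are not whole numbers. The reads of this pair may thus not be fully separated, which was not tested. The nearest was LTO1, a ribosome assembly factor, 14.1 kb away, at 14.8 CPM with ChREBP-beta and 10.1 CPM with GFP (log2 fold change 0.55, SE 0.103, edgeR adjusted p = 6.56e-05). Ccnd1, cyclin D1, the regulator of entry into the cell cycle, 29.0 kb away, was at 741 ± 17.2 CPM with ChREBP-beta and 292 ± 2.91 CPM with GFP (SD, n = 3 each; log2 fold change 1.34, edgeR adjusted p = 1.91e-22). Ano1, a calcium-activated chloride channel gene, 144.5 kb away, had a log2 fold change of 1.68 (edgeR adjusted p = 6.43e-16). Fgf3 and Fgf4, which lie beside Fgf15, had no count in any library. Around the other 7 genes called at 2-fold, higher calls outnumbered lower calls wherever neighbours within 250 kb were tested. At Dusp9 3 were higher and 1 lower of 9, at Fgfr3 3 higher and 1 lower of 7, and at Fgfr4 2 higher of 7. Dusp22 and Dusp27 each had 1 higher of 2, Fgfr2 had 1 higher of 1, and Fgf10 had none tested.

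The remaining 14 secreted ligand genes were too low to test. Fgf21, the fasting and stress hormone that ChREBP induces in liver, had 3, 3 and 2 counts in ChREBP-beta libraries and 1, 1 and 1 in GFP libraries, so that the E-box shown for its promoter came with hardly any transcript in either group. Fgf1, acidic FGF, had 31 counts over the ChREBP-beta and 16 over the GFP libraries. Fgf5, an inhibitor of hair growth, had 0 counts over the ChREBP-beta and 5 over the GFP libraries, and Fgf22 had 4 and 3. Fgf23, the phosphate hormone, Fgf6, a muscle-restricted ligand, Fgf8, Fgf9, Fgf17 and Fgf18 had between 0 and 3 counts over either group. Fgf3, Fgf4, Fgf16 and Fgf20 had none in any library. With no filter on low counts, 53 of the 59 genes entered the test, and the calls numbered 8 higher and 14 lower.

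The intracellular members Fgf11 to Fgf14 are not secreted and bind voltage-gated sodium channels. Fgf11 was tested and fell 1.70-fold, with 1.85, 2.02 and 1.56 CPM in ChREBP-beta libraries and 3.56, 2.82 and 2.90 CPM in GFP libraries (log2 fold change -0.77, SE 0.252, edgeR adjusted p = 0.0115). The groups did not overlap, but the call was lost without ChREBP-beta replicate 3 or without GFP replicate 1 (edgeR adjusted p = 0.0528 and 0.0598). Fgf12 had no count, and Fgf13 and Fgf14 had 7 counts or fewer over either group.

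All 5 receptor genes were tested. Fgfr2, Fgfr3, Fgfr4 and Fgfrl1 were called lower and Fgfr1 was not called, where 29.3% of all genes tested were called lower. The median log2 fold change of the 5 was -1.10. Fgfr1, the main FGF receptor of mesenchymal cells, was read at 139, 141 and 134 CPM in ChREBP-beta libraries and at 145, 152 and 140 CPM in GFP libraries, so the groups overlapped (log2 fold change -0.08, SE 0.0365, edgeR adjusted p = 0.0683). It was called lower without GFP replicate 3 (edgeR adjusted p = 0.0265), with upper-quartile scaling (0.0117), with scaling to total counts only (0.00539) and among genes of at least 5 CPM (0.0253).

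Fgfr2 (ENSMUSG00000030849.18; chromosome 7, 130162451 to 130266808, minus strand, GRCm38), whose splice forms receive Fgf7 and Fgf10 in epithelia or other FGFs in mesenchyme, fell 4.98-fold. Its level was 3.81, 4.26 and 5.32 CPM in ChREBP-beta libraries and 23.5, 22.8 and 20.2 CPM in GFP libraries (log2 fold change -2.32, SE 0.119, edgeR adjusted p = 1.95e-14). All ChREBP-beta libraries lay below all GFP libraries. The counts are not whole numbers in 5 libraries and do not separate the splice forms.

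Fgfr4 (ENSMUSG00000005320.9; chromosome 13, 55152818 to 55168759, plus strand, GRCm38), a receptor that is strong in myogenic cells and in liver, had no count in any ChREBP-beta library. In the GFP libraries it had 19, 16 and 26 counts, or 0.994, 0.885 and 1.45 CPM. Taking 3 counts in the whole group as the floor, it was at least 20.1-fold lower with ChREBP-beta (edgeR adjusted p = 1.60e-06). A 0 at this depth allows up to 0.0551 CPM, by counting error alone. Its fall came beside the fall of the summed myoblast markers given above, whose part was not tested. Fgfr3, a receptor known from cartilage growth, was at 1.25, 1.28 and 1.27 CPM with ChREBP-beta and at 2.30, 3.04 and 2.84 CPM with GFP. It was 2.15-fold lower without overlap, on 22 to 55 counts per library (log2 fold change -1.10, SE 0.280, edgeR adjusted p = 0.00160). Fgfrl1, a receptor-like protein without a kinase domain, averaged 7.10 ± 0.578 CPM with ChREBP-beta and 9.05 ± 0.0478 CPM with GFP (SD, n = 3 each; edgeR adjusted p = 0.0187), a call lost without ChREBP-beta replicate 2 (edgeR adjusted p = 0.0759) and by DESeq2 (adjusted p = 0.0509).

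**Figure D2:**
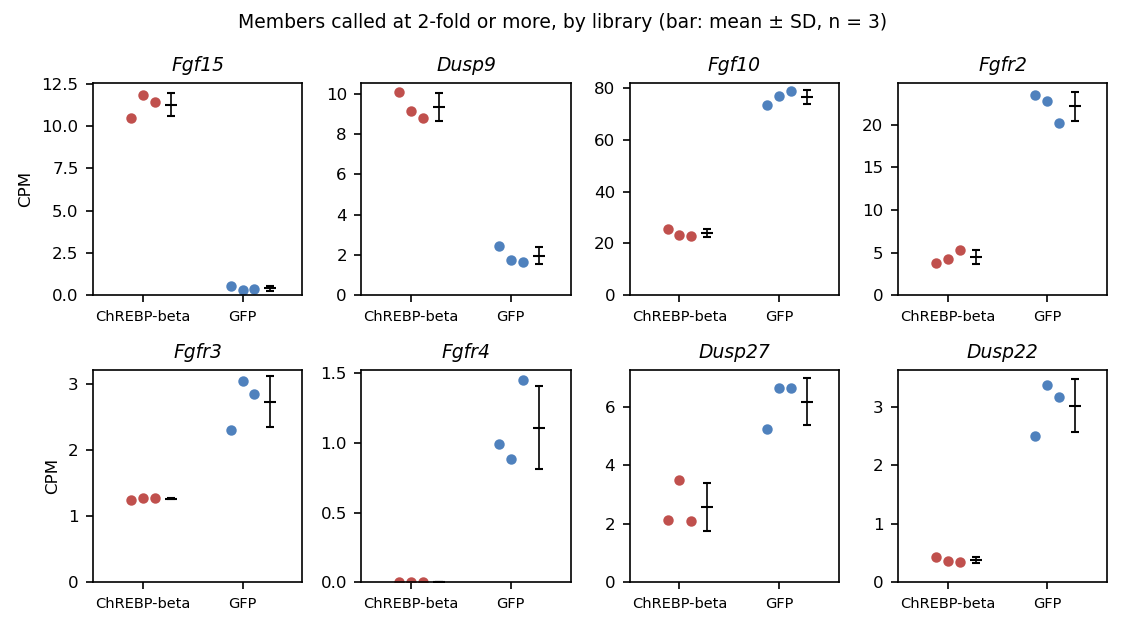
CPM (y axis, from 0) in each library of the 8 genes called at 2-fold or more, with ChREBP-beta at left and GFP at right in each panel. Points are libraries and the bar beside them is the mean ± SD of 3. The groups do not overlap in any panel, and Fgfr4 is at 0 in the 3 ChREBP-beta libraries. The genes were chosen by their calls on these same libraries, so separate groups were likely beforehand. Among all genes tested, the groups did not overlap for 63.2%.

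Levels of different genes were set side by side as CPM per kilobase of exon (GENCODE M21). The 4 receptor kinases summed to 14.9 ± 0.286 CPM per kb with ChREBP-beta and to 18.0 ± 0.694 CPM per kb with GFP (SD, n = 3 each). Fgfr1 made up 95.8% ± 0.594 of that sum with ChREBP-beta and 83.8% ± 0.344 with GFP. Fgfr2 made up 3.003% ± 0.569 with ChREBP-beta and 12.3% ± 0.691 with GFP. Among secreted ligands, Fgf7 made up 81.02% ± 0.688 of the summed level per kb with ChREBP-beta and 76.7% ± 1.03 with GFP. Fgf10 made up 5.67% ± 0.469 with ChREBP-beta and 15.2% ± 0.531 with GFP, and Fgf15 3.69% ± 0.152 with ChREBP-beta and 0.109% ± 0.0334 with GFP. No library of one group entered the range of the other for these shares.

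The symbols Fgfr1op and Fgfr1op2 match the pattern but are not receptors. They name genes first found fused to FGFR1 in human leukaemia, and Fgfr1op encodes a centrosomal protein. Fgfr1op2 was at 128, 117 and 125 CPM in ChREBP-beta libraries and at 105, 110 and 109 CPM in GFP libraries, 1.14-fold higher (edgeR adjusted p = 1.98e-04). Fgfr1op, whose counts are not whole numbers in 5 libraries, was at 26.2 CPM with ChREBP-beta and 28.9 CPM with GFP (edgeR adjusted p = 0.124). It was called lower without ChREBP-beta replicate 1 (edgeR adjusted p = 0.0171). Without these symbols, 21 of 36 tested genes were called, 7 higher and 14 lower. That was 58.3%, near the 58.7% called among all genes tested (29.5% higher and 29.3% lower).

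FGFs reach their receptors through heparan sulphate, and genes of its carriers changed in both directions. Of the 18 genes listed as co-receptors and heparan sulphate carriers, 12 were tested, of which 3 were higher, 7 lower and 2 not called (83.3% called, against 58.7% of all genes; median log2 fold change -0.19). Sdc1, the epithelial and plasma cell syndecan, rose 2.95-fold to 538 CPM with ChREBP-beta, against 182 CPM with GFP (edgeR adjusted p = 3.98e-23). Sdc2 was at 386 CPM with ChREBP-beta and 613 CPM with GFP and Sdc4, a syndecan of focal adhesions, at 176 CPM with ChREBP-beta and 216 CPM with GFP (edgeR adjusted p = 9.32e-17 and 2.26e-08). Ncam1, an adhesion molecule that binds FGF receptors, fell 2.22-fold (edgeR adjusted p = 1.20e-13). The klotho genes that endocrine FGFs require were nearly absent: Kl had no count and Klb stood at 0.0925 CPM with ChREBP-beta and 0.0544 CPM with GFP.

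Of 15 genes that make or edit heparan sulphate, 14 were tested, of which 5 were higher, 5 lower and 4 not called. The share called was 71.4%, against 58.7% of all genes tested, and the median log2 fold change was -0.02. The sulphatase genes Sulf1 and Sulf2, whose products trim the sulphates that FGF and its receptor bind, moved apart. Sulf2 rose 1.84-fold to 259 CPM with ChREBP-beta, against 140 CPM with GFP (edgeR adjusted p = 1.55e-16). Sulf1 was at 0.973 CPM with ChREBP-beta and 6.07 CPM with GFP (edgeR adjusted p = 1.87e-09; Sulf1 was picked after its value was seen). The sulphotransferase genes Ndst1 and Hs2st1 rose 1.54-fold and 1.49-fold, and Hs6st1 fell 1.47-fold (edgeR adjusted p = 2.12e-14, 8.83e-13 and 3.94e-10).

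Between the receptor and Erk, changes were mostly small. Among receptor adaptors and Ras control genes, 16 were tested, of which 5 were higher, 5 lower and 6 not called. The share called was 62.5%, near the 58.7% of all genes tested, and the median log2 fold change was -0.01. Frs2, the adaptor through which FGF receptors signal, was at 101 CPM with ChREBP-beta and 128 CPM with GFP, and Gab1, a docking protein, fell 1.74-fold (edgeR adjusted p = 3.59e-08 and 4.06e-12). Ptpn11, the phosphatase Shp2 that promotes Ras signalling, rose 1.21-fold (edgeR adjusted p = 6.16e-08). Rasgrp3, a Ras activator that responds to diacylglycerol, was read at 7.997, 7.81 and 9.66 CPM in ChREBP-beta libraries and at 0.262, 0.166 and 0.501 CPM in GFP libraries, 26.9-fold higher without overlap (edgeR adjusted p = 2.93e-13). Rasgrf1, another Ras activator, had 0 counts over the ChREBP-beta libraries and 66 over the GFP libraries, at least 21.7-fold lower against the floor of 3 counts over the group.

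The kinases of the cascade itself, Ras to Erk, had 17 members tested, of which 9 were higher, 2 lower and 6 not called. The share called was 64.7% and the median log2 fold change 0.08. Over all genes tested, 58.7% were called, 29.5% higher and 29.3% lower. Map2k1, the kinase Mek1, rose 1.48-fold (edgeR adjusted p = 2.32e-10), Rras2 1.25-fold and Rps6ka3, an Erk-activated kinase, 1.16-fold (edgeR adjusted p = 4.52e-06 for both), and Map2k5, the kinase above Erk5, 1.35-fold (edgeR adjusted p = 1.71e-04). Mapk3, Erk1, was called at a log2 fold change of -0.10, with groups that overlapped (edgeR adjusted p = 0.0318). The count of 2 lower (Mapk3 and Nras) was 0 or 1 without each library in turn. Of 13 tested Jnk and p38 kinase genes, 8 were higher, 3 lower and 2 not called. The share called was 84.6%, against 58.7% of all genes tested, and the median log2 fold change was 0.17. Without ChREBP-beta replicate 2 the count of lower calls was 1. Map2k3, which activates p38, rose 1.31-fold and Map3k1, above Jnk, 1.72-fold (edgeR adjusted p = 4.21e-10 and 5.28e-05). Map2k6, another activator of p38, fell to 3.72 CPM with ChREBP-beta, against 9.27 CPM with GFP, and Mapk10, Jnk3, rose to 2.64 CPM with ChREBP-beta, against 0.494 CPM with GFP (edgeR adjusted p = 1.32e-07 and 6.30e-06).

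**Figure D3:**
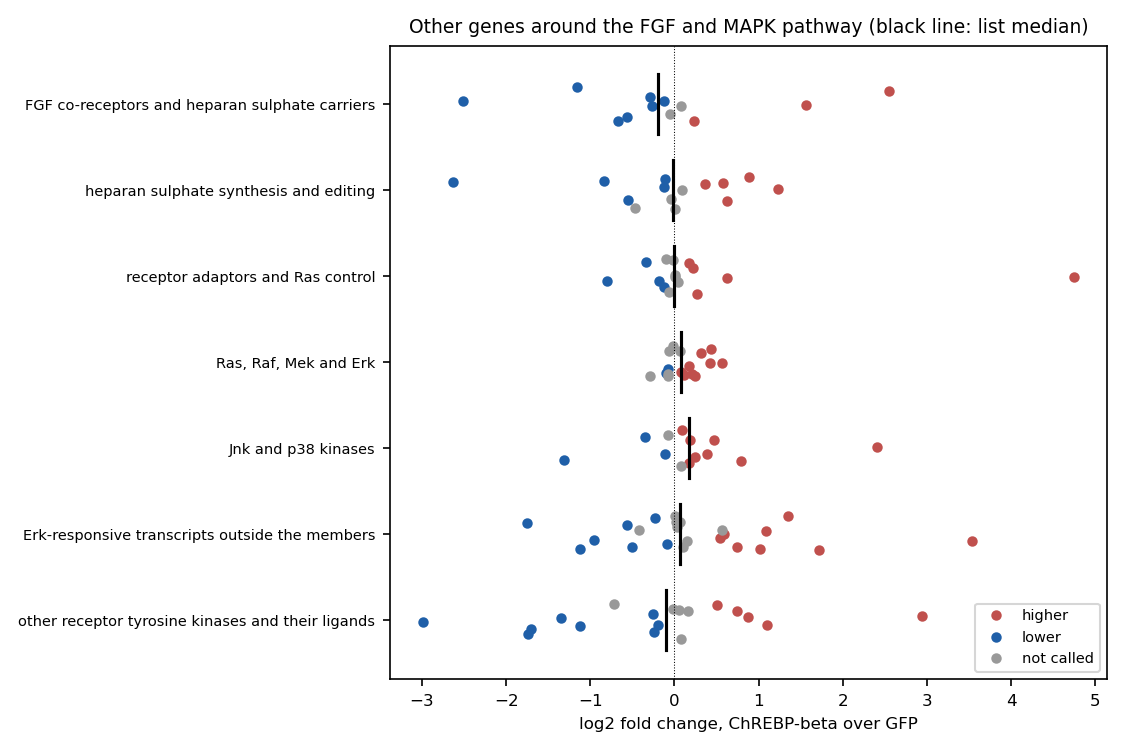
Log2 fold change (ChREBP-beta over GFP, x axis) of each tested gene in the 7 lists around the pathway, with points spread vertically for legibility and a black line at each list's median. Red points were called higher, blue lower and grey not called, and Rasgrf1, at 0 with ChREBP-beta, is not drawn but counts in its list's median. The medians lie between -0.19 and 0.17, while single genes range far to both sides.

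Feedback inhibitors of the Sprouty and Spred families, which block the step from receptor to Ras and Raf, split. Of 6 genes, 6 were tested: Spred1 was higher, Spry2 and Spred3 were lower, and Spry1, Spry4 and Spred2 were not called. The 3 calls among 6 stand beside 58.7% of all genes called. Spred1, which brings the Ras inhibitor neurofibromin to the membrane, was the most abundant. It was at 189, 191 and 183 CPM in ChREBP-beta libraries and at 151, 147 and 157 CPM in GFP libraries, 1.24-fold higher without overlap (log2 fold change 0.31, SE 0.0337, edgeR adjusted p = 2.86e-08). Spry2, the Sprouty most read here by length, averaged 11.6 ± 0.0708 CPM with ChREBP-beta and 17.2 ± 1.19 CPM with GFP (SD, n = 3 each; 1.48-fold lower, edgeR adjusted p = 1.43e-05).

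Spred3 was 1.42-fold lower (edgeR adjusted p = 0.0319), a call lost by DESeq2 (adjusted p = 0.0536) and, by edgeR, without ChREBP-beta replicate 1 or 2 (adjusted p = 0.0964 and 0.103) or GFP replicate 2 or 3 (adjusted p = 0.135 and 0.0662). Spry4 was at 6.27 ± 0.281 CPM with ChREBP-beta and 7.26 ± 1.63 CPM with GFP (SD, n = 3 each; edgeR adjusted p = 0.255), and without GFP replicate 3 it was called lower (edgeR adjusted p = 0.0435). Spry1, which keeps muscle stem cells quiescent in mouse, averaged 3.19 CPM with ChREBP-beta and 2.71 CPM with GFP, and Spred2 64.4 CPM with ChREBP-beta and 67.5 CPM with GFP. The summed level of the 6 genes per kb was 50.1 ± 0.564 CPM per kb with ChREBP-beta and 48.5 ± 1.19 CPM per kb with GFP (SD, n = 3 each). Within it, Spred1 held 54.1% to 56.1% with ChREBP-beta and 45.7% to 46.4% with GFP, and Spry2 11.1% ± 0.161 with ChREBP-beta and 17.0% ± 0.879 with GFP.

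The inducible nuclear phosphatases Dusp1, Dusp2, Dusp4 and Dusp5 are immediate early genes of growth factor and stress signals. Dusp4 was the most abundant of them and the one called: 31.8, 35.6 and 36.1 CPM in ChREBP-beta libraries against 46.8, 48.0 and 49.7 CPM in GFP libraries. It was 1.40-fold lower without overlap (log2 fold change -0.48, SE 0.0602, edgeR adjusted p = 2.34e-07). Dusp1, a stress-induced phosphatase of p38 and Jnk, averaged 9.37 ± 0.751 CPM with ChREBP-beta and 8.64 ± 0.322 CPM with GFP (SD, n = 3 each; edgeR adjusted p = 0.403). Dusp5, specific for Erk in the nucleus, averaged 19.7 CPM with ChREBP-beta and 20.6 CPM with GFP (edgeR adjusted p = 0.555). Dusp2 had a log2 fold change of 0.66 with an SE of 0.400, on 11 to 31 counts per library (edgeR adjusted p = 0.158).

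The cytoplasmic phosphatases that prefer Erk were all called, and in different directions, where the background was 58.7% called. Dusp6, a standard transcript of FGF and Erk activity, was at 32.0, 32.6 and 35.6 CPM in ChREBP-beta libraries and at 43.2, 41.5 and 36.3 CPM in GFP libraries. The lowest GFP library stood just above the highest ChREBP-beta library, and the fall was 1.21-fold (log2 fold change -0.27, SE 0.0680, edgeR adjusted p = 0.00128). Dusp7 rose 1.35-fold, averaging 37.3 ± 2.87 CPM with ChREBP-beta and 27.7 ± 0.574 CPM with GFP (SD, n = 3 each; edgeR adjusted p = 5.45e-06). Dusp9 (ENSMUSG00000031383.8), an X-linked phosphatase of placenta and embryonic stem cells, rose 4.73-fold. It was at 10.1, 9.14 and 8.79 CPM in ChREBP-beta libraries and at 2.46, 1.77 and 1.67 CPM in GFP libraries (log2 fold change 2.24, SE 0.178, edgeR adjusted p = 8.99e-11). Per kb, the 3 genes summed to 25.2 ± 1.22 CPM per kb with ChREBP-beta and 21.8 ± 1.32 CPM per kb with GFP (SD, n = 3 each). The share of Dusp6 was 42.3% ± 0.518 with ChREBP-beta and 58.9% ± 1.71 with GFP, and the share of Dusp9 was 13.7% ± 1.62 with ChREBP-beta and 3.29% ± 0.575 with GFP.

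**Figure D4:**
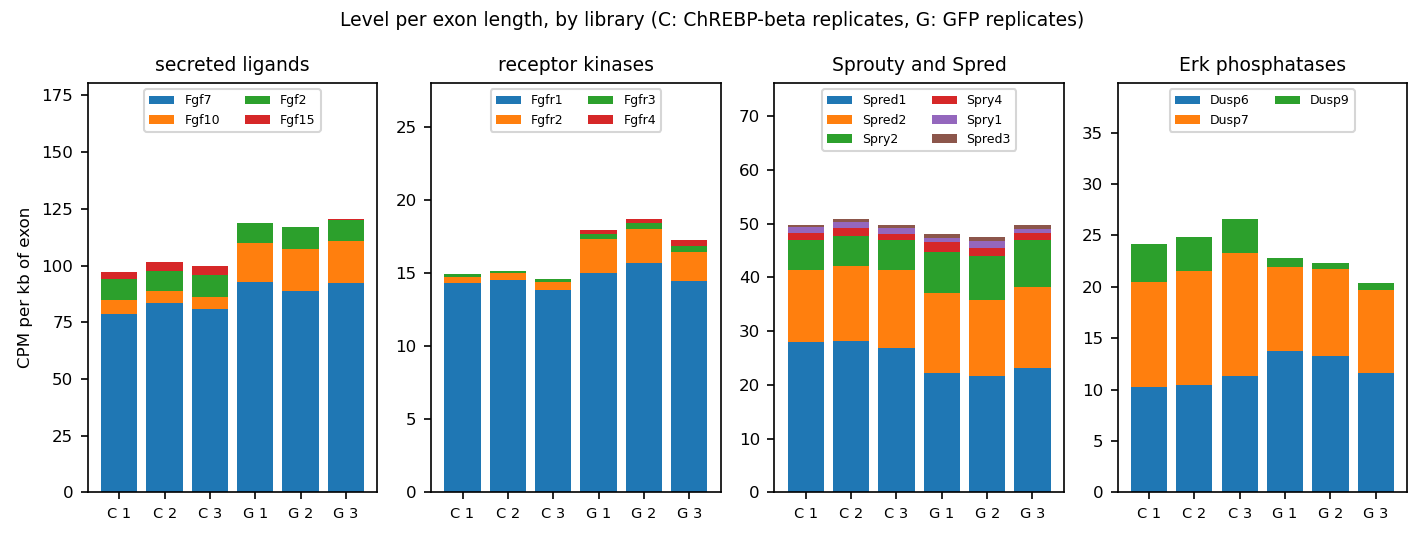
Stacked levels in CPM per kb of exon (y axis, from 0) in each library, for the 4 tested secreted ligands, the 4 receptor kinases, Sprouty and Spred, and the Erk-preferring phosphatases. C 1 to C 3 are ChREBP-beta and G 1 to G 3 GFP replicates. Fgf7 and Fgfr1 fill most of their bars in every library, the Fgf10 and Fgfr2 segments are thinner with ChREBP-beta, and the Dusp9 segment is thicker.

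Phosphatases that prefer Jnk and p38 also differed from each other. Dusp16 rose 1.57-fold, with 25.9, 28.4 and 26.4 CPM in ChREBP-beta libraries and 18.2, 16.8 and 16.5 CPM in GFP libraries (log2 fold change 0.65, SE 0.0772, edgeR adjusted p = 1.05e-07). Dusp10 was 1.16-fold lower, with 20.6, 20.3 and 21.9 CPM in ChREBP-beta libraries and 23.1, 25.0 and 24.7 CPM in GFP libraries (edgeR adjusted p = 0.0169). That call did not hold by DESeq2 (adjusted p = 0.0531) nor, by edgeR, without ChREBP-beta replicate 1 or 2 (adjusted p = 0.0526 and 0.0636) or GFP replicate 2 or 3 (adjusted p = 0.0731 and 0.0517). Dusp8 had a log2 fold change of 0.27 and was not called (edgeR adjusted p = 0.0715), although the groups did not overlap. Over all 10 classical MAP kinase phosphatases the summed level per kb was 62.7 ± 2.47 CPM per kb with ChREBP-beta and 63.8 ± 0.15 CPM per kb with GFP (SD, n = 3 each).

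The atypical dual-specificity phosphatases, many with substrates outside the MAP kinases, counted 14 genes, of which 10 were tested. Of these, 2 were higher, 2 lower and 6 not called, where 58.7% of all genes were called. Dusp11, which acts on RNA 5' ends, was the most abundant, at 237, 233 and 238 CPM in ChREBP-beta libraries and at 202, 202 and 206 CPM in GFP libraries, 1.16-fold higher (edgeR adjusted p = 9.64e-07). Dusp3, known as VHR, a phosphatase of Erk and Jnk, rose 1.77-fold, with 48.9, 48.6 and 49.7 CPM in ChREBP-beta libraries and 27.4, 27.5 and 28.4 CPM in GFP libraries (log2 fold change 0.82, SE 0.0573, edgeR adjusted p = 7.57e-12). Both groups were tight and well apart.

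Dusp22 (ENSMUSG00000069255.13; chromosome 13, 30660059 to 30711232, plus strand, GRCm38), a phosphatase that modulates Jnk, fell 7.71-fold at low level. It was at 0.435, 0.372 and 0.347 CPM in ChREBP-beta libraries and at 2.51, 3.37 and 3.18 CPM in GFP libraries, or 6 to 8 against 48 to 61 counts (log2 fold change -2.95, SE 0.352, edgeR adjusted p = 1.11e-07). Dusp27, a muscle protein without phosphatase activity that zebrafish need for sarcomere assembly, was at 2.12, 3.51 and 2.08 CPM in ChREBP-beta libraries and at 5.23, 6.64 and 6.63 CPM in GFP libraries, 2.38-fold lower (log2 fold change -1.25, SE 0.210, edgeR adjusted p = 1.67e-05). ChREBP-beta replicate 2 was the highest of its group but below every GFP library. The same fall of myoblast markers stood beside that of Dusp27, and its part was not tested. Dusp12, Dusp14, Dusp18, Dusp19, Dusp23 and Dusp28 were not called, with log2 fold changes between -0.64 for Dusp23 and 0.13 for Dusp14. Dusp18 was called lower without GFP replicate 2 (edgeR adjusted p = 0.0171) and in 3 other settings. Dusp13, a phosphatase of testis and skeletal muscle, had 1 count over the ChREBP-beta and 9 over the GFP libraries, Dusp15 had 2 over the ChREBP-beta and 13 over the GFP libraries, Dusp26 had 3 over the ChREBP-beta and 0 over the GFP libraries, and Dusp21 had none.

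Erk-responsive genes outside these families also went both ways. Of 23 tested, 8 were higher, 7 lower and 8 not called (65.2% called, against 58.7% of all genes; median log2 fold change 0.07). The 7 lower ones include Cic, which is not a gene that Erk induces but a repressor that Erk inactivates. Among the higher ones, Ccnd1 is described above with Fgf15, Ereg, an EGF family ligand, rose 3.29-fold, Lif, a cytokine, 11.6-fold and Myc, a growth-promoting factor, 2.12-fold (edgeR adjusted p = 6.86e-22, 6.13e-19 and 4.03e-16). The Ets factors Etv4 and Etv5 and the receptor antagonist Il17rd, which follow FGF activity in embryos, were singled out after their values were seen. Etv4 was at 17.0, 17.0 and 20.1 CPM in ChREBP-beta libraries and at 41.4, 39.6 and 36.4 CPM in GFP libraries (log2 fold change -1.12, SE 0.0759, edgeR adjusted p = 4.36e-12). Etv5 was at 22.1, 18.0 and 18.4 CPM in ChREBP-beta libraries and at 41.9, 33.6 and 38.2 CPM in GFP libraries (edgeR adjusted p = 6.74e-10). Il17rd averaged 4.27 CPM with ChREBP-beta and 14.4 CPM with GFP (edgeR adjusted p = 1.88e-11). In each of these 3 genes all ChREBP-beta libraries lay below all GFP libraries, while Etv1 was 1.51-fold higher (edgeR adjusted p = 0.00572). Groups that did not overlap, in either direction, were found for 63.2% of all genes tested.

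Receptor tyrosine kinases other than FGF receptors were measured beside them. Of 18 tested kinases and ligands, 5 were higher, 8 lower and 5 not called. The share called was 72.2%, against 58.7% of all genes tested, and the median log2 fold change was -0.10. Egfr, the EGF receptor, fell 3.27-fold to 21.95 CPM with ChREBP-beta, against 71.8 CPM with GFP, and Met, the receptor of hepatocyte growth factor, 2.18-fold (edgeR adjusted p = 1.08e-17 and 3.09e-15). Pdgfrb, a platelet-derived growth factor receptor, rose 1.83-fold to 502 CPM with ChREBP-beta, against 274 CPM with GFP, and the ligand gene Pdgfc 7.70-fold (edgeR adjusted p = 3.48e-18 and 4.08e-17).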

How the data were processed

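Per the labels, libraries of total RNA from C2C12 cells were made by standard Illumina protocols. The values are estimated counts, deposited by the authors without normalization in 1 table with a row per symbol and a column per library, and 7.74% of them are not whole. The submitters' processing notes name fastp, Bowtie2 (2.0.0.5), TopHat2 (2.0.0) and the assembly GRCg6a, which is chicken, although the symbols are mouse. No source used here states the annotation, the counting tool or the strand setting. Exons of other members, among them Fgfr1, Fgfr3, Dusp3, Dusp11 and Dusp19, also overlap those of annotated genes. What this does to their counts was not tested.

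Rows of 24 repeated symbols were summed, then rounded. The test was edgeR's quasi-likelihood test (glmQLFit, glmQLFTest; version 4.0.16 in R 4.3.3) with TMM scaling, on 12166 genes kept by filterByExpr (minimum count 10, minimum total 15), with group as the only term, two-sided. Calls had a Benjamini-Hochberg adjusted p under 0.05. An SE is the log2 fold change over the square root of F. A gene with a CPM of 1 has 18.3 counts per library, and floors of 3 counts cover counting error only. The test was also run on simulated counts with the same spread for all genes. It called 43 of 50 changes of 1.25-fold and 50 of 50 of 2-fold with the right sign, and 7 of its 195 calls were false. The simulation lacks a spread that differs between genes, so it does not measure the error of the calls given here.

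Replicates differed by more than sampling noise (chi-square per degree of freedom 2.14 to 3.95), so all 6 were kept. Positions are from RefSeq GRCm38.p6 and gene identifiers and exon lengths from GENCODE M21, both matched by symbol; the authors' build may differ. Same-numbered replicates did not deviate together (correlations -0.04 to 0.00), so the numbers were not used to pair libraries. Alternatives were other scalings, filters, tools, roundings, a replicate block and each library left out.

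Members and lists were chosen with earlier results of these data known. Members called at 1.5-fold or more, and the most abundant of each role, are given per library, and up to 4 called genes with the smallest adjusted p of each other list are named. Other genes named were picked after their values were seen, which the text says for Etv4, Etv5, Il17rd, Sulf1 and the neighbours of Fgf15; the same holds for Rasgrf1, Mapk3, Nras, Etv1, Cic, Kl and Klb. One gene of the cascade is not reported here by name.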

Additional observations from a re-analysis of the deposited data

How the results depend on the processing

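Of the 22 called members, 18 kept their call and direction in each of the 15 alternative fits that tested them. The other 4 (Dusp10, Fgf11, Fgfrl1 and Spred3) lost it in some. None reversed. Of the 16 uncalled members, 5 (Dusp18, Fgfr1, Fgfr1op, Spred2 and Spry4) were called lower in some. Across the alternatives other than the 2-fold minimum, calls among members stayed within 1.5 times the 8 higher and 14 lower. With a 2-fold minimum they were 2 higher and 6 lower, and over all genes 494 higher and 903 lower.

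With a mean CPM of at least 5, which tests fewer genes, the heparan sulphate synthesis list had 3 lower calls and the adaptor list 3 higher calls. Lower calls in the Ras to Erk list were 1 under RLE size factors, 1 with no filter, 0 by DESeq2 and 0 with the replicate block, and 0 to 1 without single libraries. In the Jnk and p38 list leaving out single libraries gave 1 to 3 lower calls. The cause was not tested.

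With the replicate block there were 8 higher and 14 lower members, and 3474 higher and 3428 lower genes in all, against 3584 and 3561 without it. No ChREBP-beta library correlated best with the GFP library of its own number.

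At this depth 1 CPM is 18.3 counts per library. Of the 21 members below the filter, 6 had no count in any library.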
